A study of Homo sapiens with 54 samples.

Results

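The 28 genes described here make the enzymes and regulators of sterol and fatty acid synthesis. They were chosen by name, as a fixed list, and their rows were read in the expression table of each of 4 human cell lines, out of 55906 gene rows per table. By role the list holds 4 regulators (SREBF1, SREBF2, SCAP and INSIG1), 7 genes of the mevalonate pathway (ACAT2, HMGCS1, MVK, PMVK, MVD, IDI1 and FDPS), 11 genes from squalene to cholesterol (FDFT1, SQLE, LSS, CYP51A1, TM7SF2, MSMO1, NSDHL, HSD17B7, EBP, SC5D and DHCR7), the sterol transfer protein STARD4, and 5 genes of fatty acid and glycerolipid synthesis (ACLY, ACACA, FASN, SCD and LPIN1). All 28 passed the filter on low values in all 4 lines.

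The study asked what cells lose when the paralogous splicing factors TRA2A and TRA2B are removed singly or together. In the lung cancer lines A549 and NCI-H23, cells stably expressing the repressor Zim3-dCas9 received guide RNAs against control loci (Control KD), TRA2A (TRA2A KD), TRA2B (TRA2B KD) or both genes (TRA2A/B DKD) and were collected 5 days after transduction. In the glioma lines LN229 and LN319, cells overexpressing luciferase (Luc) or TRA2B cDNA (TRA2B-OE) received a vector carrying Cas9 and guides against control loci, TRA2A or TRA2B and were collected 7 days after transduction. The glioma groups were Luc Control KO, Luc TRA2A KO, Luc TRA2B KO, TRA2B-OE Control KO and TRA2B-OE TRA2A KO. Every group held 3 libraries, 54 in all. The cells were transduced populations of established lines, so a knockout group could hold unedited cells. The labels do not say whether replicates came from separate cultures, so the p-values measure the spread between these libraries, which may be technical.

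Values are TPM, the share of each transcript in a library, scaled to a nominal total and already corrected for transcript length. Summed over the deposited rows, the libraries ran from 928908 (A549 Control KD replicate 3) to 964610. Levels of different genes are compared only on the TPM scale. TPM tables keep no read depth, so no counting error could be given. Fold changes are log2 differences between group means of log2(TPM + 0.1) after scaling of the libraries, given with their standard error (SE). The TPM values are printed as deposited, so their ratios can differ from the scaled fold changes. Statements on whether groups overlapped, and summed levels, also refer to the deposited values. A gene was called when its limma p, adjusted over all genes of the table by the Benjamini-Hochberg method, was under 0.05. With 3 libraries against 3, an exact permutation test cannot give p below 0.1. Each table was normalized on its own, so cell lines are set side by side and not tested against each other. In bulk RNA, fewer cells of a kind and less RNA per cell cannot be told apart.

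Cholesterol is built from acetyl-CoA. ACAT2 and HMGCS1 start the mevalonate pathway, MVK, PMVK, MVD and IDI1 carry it to the isoprenoid units, and FDPS joins these into farnesyl diphosphate. FDFT1 makes squalene, SQLE oxidizes it, LSS closes the ring to lanosterol, and the remaining enzymes turn lanosterol into cholesterol. Fatty acids branch off the same acetyl-CoA pool, which ACLY supplies from citrate, ACACA carboxylates, FASN elongates into palmitate and SCD desaturates. LPIN1 is a phosphatidate phosphatase of glycerolipid synthesis. Most of these genes are textbook targets of the SREBP transcription factors encoded by SREBF1 and SREBF2, which SCAP escorts out of the endoplasmic reticulum and INSIG1 holds back when sterol is plentiful.

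The targeted transcripts fell as labelled in the knockdowns and in the Luc knockouts. TRA2A stood at 9.56% of control in A549 TRA2A KD and 13.9% in the double knockdown, and TRA2B at 9.68% and 16.3%. In NCI-H23 the same 4 values were 6.54%, 20.5%, 10.6% and 25.2%. Transcript loss was smaller after Cas9 cutting, which need not lower RNA. TRA2A stood at 33.2% in LN319 Luc TRA2A KO and 62.9% in LN229 Luc TRA2A KO. TRA2B stood at 35.1% in LN319 Luc TRA2B KO and 66.0% in LN229 Luc TRA2B KO. In LN229 TRA2B-OE TRA2A KO, TRA2A stood at 87.2% of TRA2B-OE Control KO with overlapping libraries (adjusted p = 0.068), so RNA gave no call for that knockout. In TRA2B-OE Control KO, TRA2B stood at 374% of Luc Control KO in LN229 and 873% in LN319. The untouched paralog rose in some single perturbations, to 148% for TRA2B in NCI-H23 TRA2A KD, 149% for TRA2A in NCI-H23 TRA2B KD and 155% for TRA2A in LN229 Luc TRA2B KO. It fell in LN319 Luc TRA2B KO, to 84.6% for TRA2A.

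1 control library in A549 and 2 in LN229 stood apart from their groups. In A549, Control KD replicate 3 had the lowest median correlation with the other libraries of its line (0.835, with 0.871 the next lowest). The factor used to scale it was the highest of the line, at 1.17. In LN229, the levels of several members in Luc Control KO replicate 1 lay among those of the TRA2B KO libraries, while its TRA2A and TRA2B levels were 105 and 202 TPM against 167 to 171 and 143 to 149.8 in the Luc TRA2B KO libraries. The summed level of the glial or mesenchymal markers was 3496 TPM in it, 4303 and 4308 in the other Luc Control KO libraries and 3526 to 3568 in Luc TRA2B KO. TRA2B-OE Control KO replicate 1 differed from its group in the same way, at 3487 against 4375 TPM in both others for these markers and at 63.0, 44.6 and 41.0 TPM for SREBF1 in the 3 libraries. Calls that change without 1 of these libraries are given with and without it. Keratins KRT8 and KRT18 were high in the lung lines (KRT8 at 2779 ± 129 TPM in A549 and 772 ± 20.5 in NCI-H23 controls, mean ± SD, n = 3) and EPCAM was low (2.76 ± 0.308 and 1.28 ± 0.246). In the glioma lines VIM and CD44 were high, SOX2 stood at 81.9 ± 7.66 TPM in LN229 and 402 ± 24.5 in LN319, and GFAP at only 2.84 ± 0.579 and 2.13 ± 0.585. OLIG2 was near 0 in LN319. The summed level of the immune and endothelial markers PTPRC, PECAM1 and CD3E was at most 2.46 TPM in any library.

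In control cells the fatty acid synthase gene FASN and the farnesyl diphosphate synthase gene FDPS were among the 3 highest members in all 4 lines. ACLY led in A549 at 412 ± 107 TPM, an average raised by replicate 3 (363, 339 and 535). FDPS led in NCI-H23 at 268 ± 28.3 TPM. FASN led in LN229 at 329 ± 27.3 and in LN319 at 369 ± 36.1 TPM. STARD4 was the lowest member in A549, NCI-H23 and LN319 (6.27 ± 1.48, 4.31 ± 0.191 and 7.68 ± 0.799 TPM) but stood at 38.3 ± 12.9 TPM in LN229, where TM7SF2 was lowest (13.3 ± 3.28). SREBF1 was the third highest member in LN319 at 254 ± 3.39 TPM.

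Promoters are shown for 4 members that moved the same way in both lung lines after double knockdown, FDPS, EBP and SCD (lower) and HMGCS1 (higher). Each run is the 250 bases before a RefSeq transcript start on GRCh38.p14, 5′ to 3′ on the gene's strand. Capitals mark CCAAT, the box bound by NF-Y, and GGGCGG, the box bound by Sp1, on either strand. No marked match overlapped another.
FDPS, chr1:155308616-155308865, plus strand: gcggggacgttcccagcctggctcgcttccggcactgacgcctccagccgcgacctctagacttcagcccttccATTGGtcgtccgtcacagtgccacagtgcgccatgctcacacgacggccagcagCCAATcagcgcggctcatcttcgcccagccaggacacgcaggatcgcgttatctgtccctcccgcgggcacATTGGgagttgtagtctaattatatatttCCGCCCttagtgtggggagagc
EBP, chrX:48521558-48521807, plus strand: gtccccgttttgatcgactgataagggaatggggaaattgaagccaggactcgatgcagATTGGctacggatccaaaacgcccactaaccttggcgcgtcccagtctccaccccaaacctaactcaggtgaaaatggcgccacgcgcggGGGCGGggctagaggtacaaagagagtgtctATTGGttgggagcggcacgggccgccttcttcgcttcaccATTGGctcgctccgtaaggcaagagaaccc
SCD, chr10:100346983-100347232, plus strand: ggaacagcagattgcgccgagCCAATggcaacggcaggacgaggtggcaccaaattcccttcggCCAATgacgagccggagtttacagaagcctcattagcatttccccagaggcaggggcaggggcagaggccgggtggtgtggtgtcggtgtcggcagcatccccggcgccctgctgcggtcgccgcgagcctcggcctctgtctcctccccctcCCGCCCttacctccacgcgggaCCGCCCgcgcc
HMGCS1, chr5:43313413-43313662, minus strand: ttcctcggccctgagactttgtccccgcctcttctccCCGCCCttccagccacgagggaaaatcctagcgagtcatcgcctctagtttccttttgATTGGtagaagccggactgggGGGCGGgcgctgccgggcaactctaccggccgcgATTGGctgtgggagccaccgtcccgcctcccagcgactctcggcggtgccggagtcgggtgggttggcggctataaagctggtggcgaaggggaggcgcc

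The printed windows of the 3 genes that fell and of HMGCS1 carried both boxes. HMGCS1 has a second window, not printed, at chr5:43313182-43313431, which held GGGCGG but no CCAAT. Promoter windows were at hand for 24 of the 28 members (34 windows, since some genes have several starts, a few of them overlapping). CCAAT or its reverse complement was in 67.6% of the member windows and in 32.0% of all 35116 windows of that length in the RefSeq table, and GGGCGG in 88.2% and 42.6%. A sterol regulatory element spelled TCACNCCAC was in 1 member window, that of SREBF2, and in 0.883% of all windows. The E-box CACGTG was in 4 member windows (11.8%), those of INSIG1, SC5D and SCAP, and in 6.34% of all windows. These are letter matches in a short window, and no binding was measured.

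In both lung lines, lowering either factor alone left all 28 members without a call. The share of all tested genes called in either direction was 0.213% in A549 TRA2A KD, 0.335% in A549 TRA2B KD, 0.976% in NCI-H23 TRA2A KD and 0.196% in NCI-H23 TRA2B KD, so few genes of any kind passed. At an unadjusted limma p under 0.05 there were 2, 7, 4 and 4 members in the same order, beside 11.3%, 13.6%, 13.6% and 10.6% of all genes. Member log2 fold changes ran from -0.49 to 0.52 in A549 TRA2A KD, from -0.63 to 0.58 in A549 TRA2B KD, from -0.74 to 0.34 in NCI-H23 TRA2A KD and from -0.55 to 0.35 in NCI-H23 TRA2B KD. The member nearest to a call was FASN in A549 TRA2B KD, with 159, 152 and 129.7 TPM against 240.2, 245 and 238 in Control KD. Those groups did not overlap, and the log2 fold change was -0.63 ± 0.12 (adjusted p = 0.0767). Without Control KD replicate 3 it was -0.73 ± 0.11 (adjusted p = 0.0216) and was called.

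**Figure D1:**
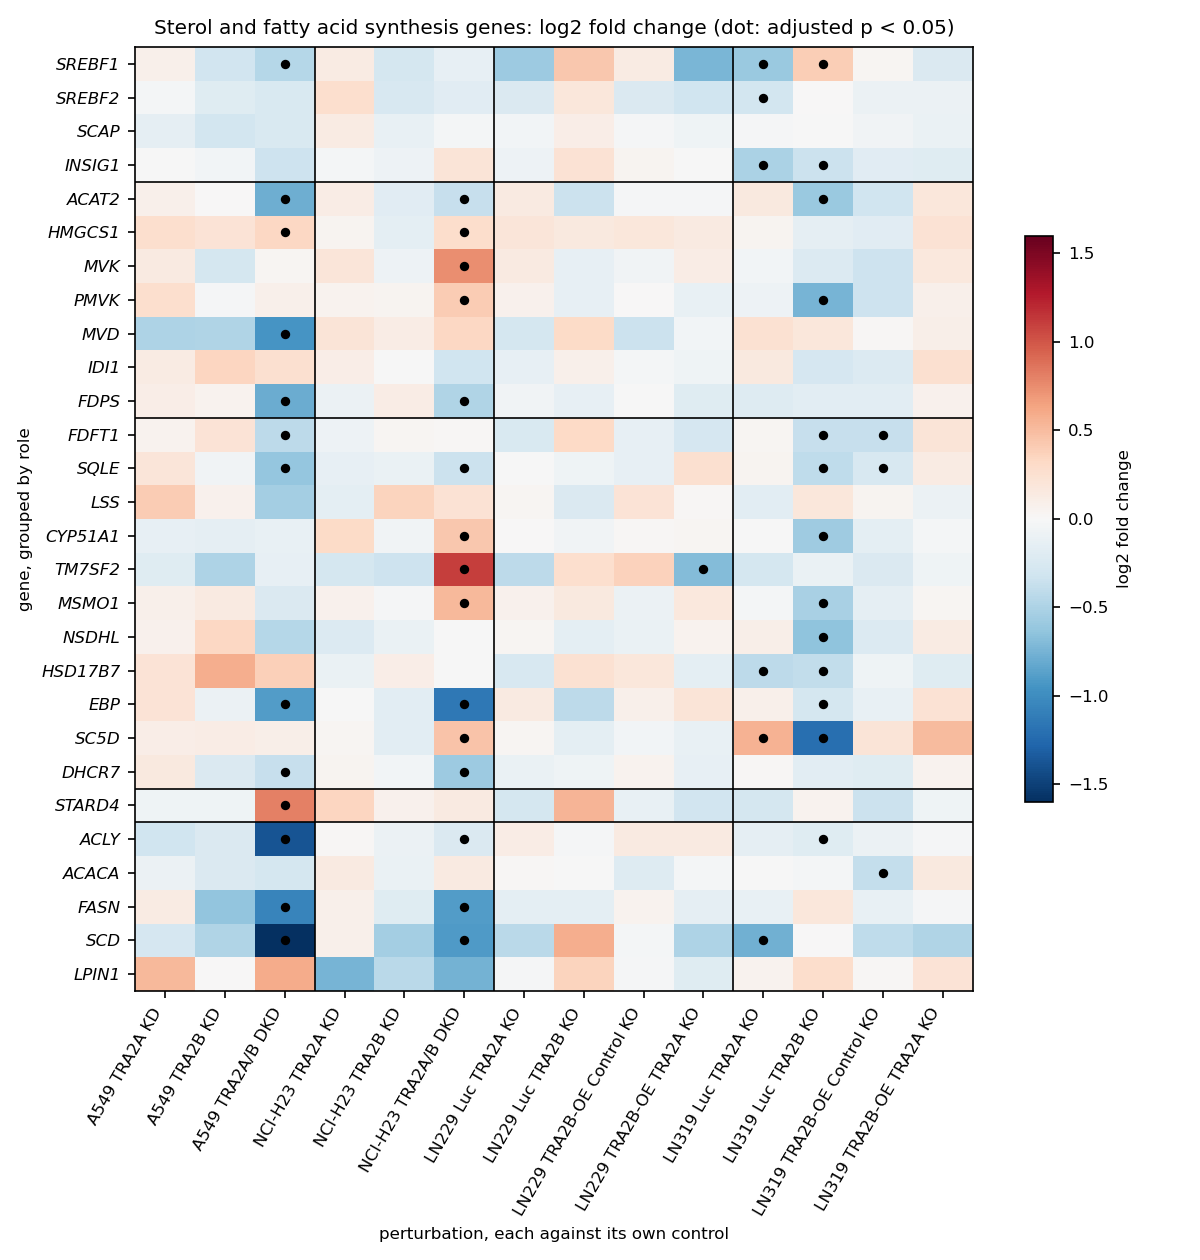
Log2 fold change of the 28 genes (rows, grouped by role) in the 14 perturbations (columns, by cell line), blue lower and red higher than the control, with a dot where the adjusted p was under 0.05. The double knockdown columns of A549 and NCI-H23 hold 13 and 15 dots, the 4 single-knockdown columns none, and the LN319 Luc TRA2B KO column 13.

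Lowering both factors together moved about as many members in both lung lines, mostly downward in A549 and in both directions in NCI-H23. In A549, 2 members rose and 11 fell, and 15 were not called. Of all genes tested there, 14.6% rose and 15.9% fell. In NCI-H23, 7 rose, 8 fell and 13 were not called, beside 20.0% and 23.2% of all genes. Both NCI-H23 counts lie near those shares, so neither they nor their split are read as a trait of these members. With TPM left unscaled the NCI-H23 split was 8 up and 5 down, and that of all genes moved the same way, to 26.8% up and 15.8% down. The median member fold change was -0.31 in A549 (0.04 over all genes) and -0.01 in NCI-H23 (0.02 over all genes). All 8 members that fell in NCI-H23 were among the 11 that fell in A549, and no member was called in opposite directions. The share of all genes called the same way or opposite ways in both lines was not computed. The overlap is therefore not read as particular to these members. Summed over all 28 members, the level was 1755 to 2172 TPM in the A549 controls and 1234 to 1290 after double knockdown, and lay at 1108 to 1168 and 1041 to 1132 TPM in NCI-H23. These sums are unscaled. The mitochondrial share of TPM was 23.1% to 31.9% in NCI-H23 Control KD and 19.3% to 28.3% in its double knockdown. In A549 it was 18.0% to 21.6% and 17.6% to 23.4%. The part of this share in the printed TPM was not tested.

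Fatty acid synthesis held the 3 largest falls in A549, in SCD, ACLY and FASN. The desaturase gene SCD read 112, 105 and 201 TPM in the A549 controls and 49.2, 47.2 and 43.2 after double knockdown. All treated libraries lay below all controls, and the third control was far above its group. The log2 fold change was -1.59 ± 0.16 (adjusted p = 3.53e-05), and -1.37 ± 0.10 (adjusted p = 4.35e-06) without that control. In NCI-H23 SCD went from 21.0, 21.7 and 19.7 to 11.1, 12.1 and 13.9 TPM, again without overlap (log2 fold change -0.90 ± 0.14, adjusted p = 0.000426).

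ACLY, which makes cytosolic acetyl-CoA, read 363, 339 and 535 TPM in A549 controls and 169, 159.6 and 161 after double knockdown. The groups were far apart (log2 fold change -1.38 ± 0.10, adjusted p = 6.15e-06). In NCI-H23 the controls read 103, 105 and 98.4 and the treated libraries 90.7, 98.6 and 102 TPM. These overlapped, and the log2 fold change there was a small -0.23 ± 0.07 (adjusted p = 0.0162) and its call was lost under 6 of 14 alternative settings.

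FASN fell in both lines. It read 121, 109 and 136 TPM in the A549 double knockdown against 240.2, 245 and 238 in controls (log2 fold change -1.06 ± 0.12, adjusted p = 0.000118). In NCI-H23 it read 78.5, 101 and 94.2 against 195, 126 and 141 TPM (log2 fold change -0.89 ± 0.17, adjusted p = 0.00156). Neither pair of groups overlapped. The carboxylase gene ACACA, between ACLY and FASN in the pathway, had a log2 fold change of -0.28 ± 0.25 (adjusted p = 0.43) in A549, where the controls read 32.6, 33.5 and 75.5 TPM and the third stood apart. Without that control it was 0.03 ± 0.19 (adjusted p = 0.91). In NCI-H23 it had a log2 fold change of 0.15 ± 0.08 (adjusted p = 0.16). LPIN1 had log2 fold changes of 0.60 ± 0.41 (adjusted p = 0.3) in A549 and -0.76 ± 0.30 (adjusted p = 0.0645) in NCI-H23.

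Among the mevalonate genes, the entry enzymes went opposite ways. ACAT2, which joins 2 acetyl-CoA, read 33.7, 31.1 and 35.4 TPM in A549 controls and 19.4, 21.1 and 20.3 after double knockdown. It was lower in every treated library (log2 fold change -0.79 ± 0.09, adjusted p = 8.06e-05). In NCI-H23 it read 17.5, 16.6 and 14.9 and 14.1, 13.1 and 14.8 TPM, apart by a narrow margin (log2 fold change -0.37 ± 0.10, adjusted p = 0.00974). With TPM left unscaled the NCI-H23 call was lost.

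HMGCS1, the next enzyme, was the single member that rose in both lines. It read 74.0, 84.7 and 84.1 TPM in A549 controls against 114, 97.2 and 111 after double knockdown (log2 fold change 0.33 ± 0.09, adjusted p = 0.0172). In NCI-H23 it read 34.8, 33.9 and 34.04 against 47.4, 42.5 and 49.8 TPM (log2 fold change 0.28 ± 0.07, adjusted p = 0.00777). The groups did not overlap in either line. The A549 call was lost under 4 of 14 settings and the NCI-H23 call under none.

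FDPS fell from 164, 173 and 131 to 81.3, 97.2 and 104 TPM in A549, without overlap (log2 fold change -0.79 ± 0.16, adjusted p = 0.0039). In NCI-H23 it fell from 254, 301 and 249.9 to 238, 187 and 220.3 TPM (log2 fold change -0.48 ± 0.09, adjusted p = 0.00119). The kinases between HMGCS1 and FDPS rose in NCI-H23. MVK read 8.29, 11.4 and 12.4 TPM in controls and 19.7, 18.8 and 20.5 after double knockdown (log2 fold change 0.74 ± 0.12, adjusted p = 0.000645), and PMVK read 78.1, 80.4 and 76.3 and 118, 107 and 122 (log2 fold change 0.40 ± 0.07, adjusted p = 0.0011). In A549 the log2 fold changes of these kinases were 0.04 ± 0.18 and 0.08 ± 0.13, neither called.

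The decarboxylase gene MVD was called in A549 with a log2 fold change of -0.94 ± 0.24 (adjusted p = 0.013), but its deposited levels overlapped, at 55.6, 41.2 and 100.5 TPM in controls and 28.7, 41.6 and 31.3 after double knockdown. The third control was the highest of all. Without it the change was -0.67 ± 0.20 (adjusted p = 0.0244). In NCI-H23 MVD had a log2 fold change of 0.33 ± 0.17 (adjusted p = 0.15). IDI1 had a log2 fold change of 0.26 ± 0.27 (adjusted p = 0.5) in A549 and -0.32 ± 0.12 (adjusted p = 0.0514) in NCI-H23. Without Control KD replicate 3 the A549 value of IDI1 was -0.10 ± 0.16 (adjusted p = 0.67), with the sign turned.

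**Figure D2:**
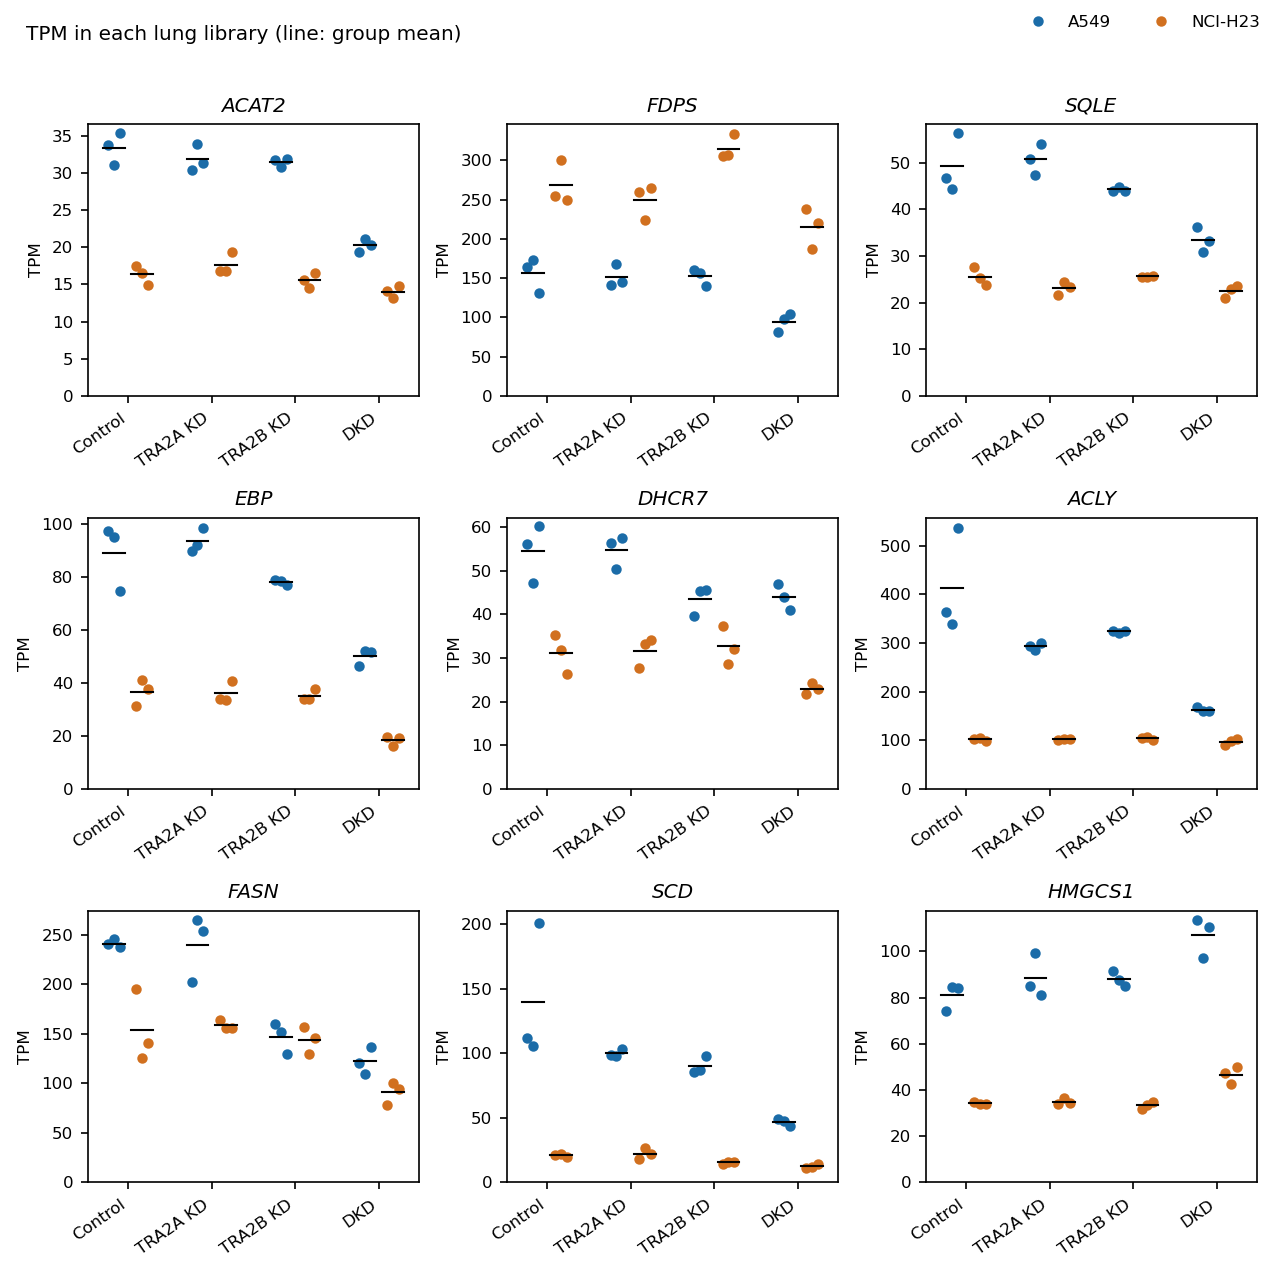
TPM (vertical axes, starting at 0) of 9 members in every A549 (blue) and NCI-H23 (orange) library, by knockdown group, with a line at each group mean (n = 3). The 8 genes that fell in both double knockdowns are followed by HMGCS1, which rose from 74.0 to 84.7 TPM in A549 controls to 97.2 to 114 in the double knockdown.

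Between squalene and cholesterol, EBP, SQLE and DHCR7 fell in both lines, 4 genes rose in NCI-H23 and FDFT1 fell in A549. EBP, the sterol isomerase, had the largest fall in NCI-H23, from 31.5, 41.1 and 37.6 to 19.7, 16.4 and 19.3 TPM (log2 fold change -1.14 ± 0.09, adjusted p = 4.99e-06). In A549 it fell from 97.5, 95.3 and 74.8 to 46.5, 52.0 and 51.8 TPM (log2 fold change -0.89 ± 0.15, adjusted p = 0.00137). Controls and double knockdowns lay well apart in both lines.

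SQLE, which adds the oxygen that LSS needs, read 46.8, 44.4 and 56.5 TPM in A549 controls and 36.1, 30.9 and 33.1 after double knockdown (log2 fold change -0.62 ± 0.10, adjusted p = 0.000755). In NCI-H23 it read 27.5, 25.2 and 23.8 and 20.9, 22.8 and 23.6, with the nearest libraries almost level (log2 fold change -0.34 ± 0.10, adjusted p = 0.0142). DHCR7, the last reductase, fell from 35.3, 31.8 and 26.3 to 21.7, 24.2 and 22.9 TPM in NCI-H23 (log2 fold change -0.59 ± 0.14, adjusted p = 0.0074). In A549 it went from 56.2, 47.1 and 60.2 to 47.0, 44.1 and 40.9 TPM (log2 fold change -0.37 ± 0.12, adjusted p = 0.0376), a call kept under 6 of 14 settings.

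4 genes of this stretch rose in NCI-H23 and were not called in A549. The sterol reductase gene TM7SF2 read 4.63, 4.20 and 4.92 TPM in NCI-H23 controls and 9.69, 10.1 and 13.9 after double knockdown, the largest rise of any member (log2 fold change 1.10 ± 0.24, adjusted p = 0.00378). MSMO1, a sterol demethylase, went from 5.11, 6.11 and 6.61 to 9.24, 9.77 and 9.35 TPM (log2 fold change 0.51 ± 0.11, adjusted p = 0.00301). The demethylation of lanosterol also takes CYP51A1, which went from 25.8, 29.7 and 30.0 to 39.6, 42.1 and 47.3 (log2 fold change 0.44 ± 0.08, adjusted p = 0.000885). SC5D, a desaturase, went from 9.49, 11.9 and 11.6 to 16.1, 16.6 and 17.5 (log2 fold change 0.45 ± 0.11, adjusted p = 0.00536). None of these 4 overlapped its controls. Their A549 log2 fold changes were -0.13 ± 0.17 for TM7SF2, -0.23 ± 0.16 for MSMO1, -0.12 ± 0.13 for CYP51A1 and 0.10 ± 0.18 for SC5D. The sign of CYP51A1 turned without Control KD replicate 3, to 0.07 ± 0.08 (adjusted p = 0.54).

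FDFT1, squalene synthase, was called in A549, from 65.6, 69.8 and 62.7 to 47.7, 50.0 and 57.5 TPM (log2 fold change -0.42 ± 0.12, adjusted p = 0.0215), a call kept under 9 of 14 settings. In NCI-H23 it read 36.8, 38.3 and 33.1 and 40.7, 39.1 and 42.0 TPM (log2 fold change 0.02 ± 0.09, adjusted p = 0.9). LSS had a log2 fold change of -0.55 ± 0.20 (adjusted p = 0.0588) and 0.23 ± 0.26 (adjusted p = 0.51), NSDHL -0.46 ± 0.20 (adjusted p = 0.11) and -0.01 ± 0.07 (adjusted p = 0.94), and HSD17B7 0.38 ± 0.19 (adjusted p = 0.15) and -0.01 ± 0.17 (adjusted p = 0.97), each value A549 first. Without Control KD replicate 3, NSDHL was called in A549 (log2 fold change -0.73 ± 0.10, adjusted p = 0.000268).

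The regulators moved less. SREBF1 read 87.2, 79.8 and 75.8 TPM in A549 controls and 65.0, 57.8 and 62.8 after double knockdown (log2 fold change -0.46 ± 0.13, adjusted p = 0.0248), a level also reached in A549 TRA2B KD (63.6, 58.1 and 62.1). The calls of SREBF1 and STARD4 in A549 were kept under 9 of 14 settings each. In NCI-H23 it had a log2 fold change of -0.13 ± 0.09 (adjusted p = 0.26). SREBF2 had a log2 fold change of -0.24 ± 0.15 and -0.18 ± 0.09, SCAP -0.24 ± 0.19 and -0.03 ± 0.09, and INSIG1 -0.34 ± 0.13 and 0.20 ± 0.16, none called. Without Control KD replicate 3 the A549 values were -0.03 ± 0.08 (adjusted p = 0.79) for SREBF2 and -0.01 ± 0.13 (adjusted p = 0.98) for SCAP. INSIG1 in A549 was called without Control KD replicate 3 (log2 fold change -0.38 ± 0.13, adjusted p = 0.0432). STARD4, which moves cholesterol between membranes, rose in A549 from 4.59, 7.39 and 6.84 to 9.86, 12.1 and 12.2 TPM (log2 fold change 0.80 ± 0.24, adjusted p = 0.0284), and had a log2 fold change of 0.15 ± 0.15 (adjusted p = 0.48) in NCI-H23.

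**Figure D3:**
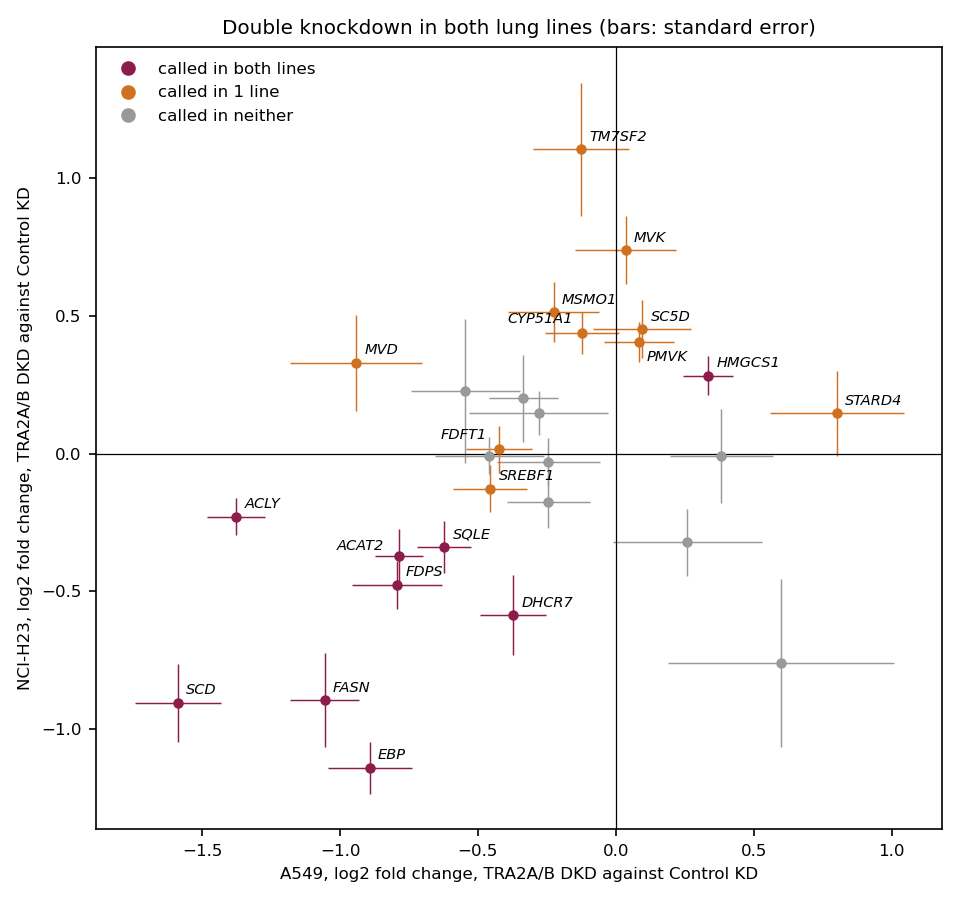
Log2 fold change after double knockdown in A549 (horizontal) against NCI-H23 (vertical), with standard error bars, for the 28 genes, purple where called in both lines and orange where called in 1. 8 purple points lie at the lower left and HMGCS1 at the upper right, while TM7SF2, MVK and MSMO1 stand high in NCI-H23 near 0 in A549.

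The count of calls in A549 depended on which libraries entered the fit. With the 2 compared groups alone it was 0 up and 7 down, beside 8.46% and 9.27% of all genes. Without Control KD replicate 3 it was 2 up and 13 down, beside 17.3% and 20.1%. With TPM left unscaled, the all-gene median log2 fold change of the double knockdown moved to 0.11 for A549 and 0.17 for NCI-H23, and that of LN319 Luc TRA2B KO to 0.12. Epithelial and glial or mesenchymal markers moved as well. In A549 4 of the 5 fell and 1 rose, their summed level going from 5400 to 5822 TPM in controls to 4116 to 4331. In NCI-H23 3 of the 4 tested fell, from 1906 to 1971 TPM to 1371 to 1606. Of the 4 glial or mesenchymal markers tested in each line, 2 fell in A549 (summed 1340 to 1534 TPM in controls and 1147 to 1251 after double knockdown) and 3 fell in NCI-H23 (1677 to 1713 and 1181 to 1319). The part of these shifts in the changes above was not tested.

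Whether the double knockdown departed from the sum of both single effects was tested as a contrast within each line. In A549 8 members departed downward and none upward, on the log2 scale. Over all genes 8.69% departed downward and 6% upward. The departure was -0.87 ± 0.12 (adjusted p = 0.00135) for ACAT2, -1.02 ± 0.22 (adjusted p = 0.0108) for EBP, -0.96 ± 0.23 (adjusted p = 0.0187) for FDPS and -0.76 ± 0.14 (adjusted p = 0.00505) for SQLE. It was -0.83 ± 0.15 for ACLY, -0.84 ± 0.22 for SCD, -0.70 ± 0.17 for FDFT1 and -1.03 ± 0.28 for LSS. The SCD departure held under 8 of 19 settings, the LSS departure under 11 and the FDFT1 departure under 16. That of ACLY held under 17 and was lost with TPM left unscaled and with quantile normalization. Those of SQLE and FDPS held under 18 each, and SQLE was lost with TPM left unscaled. FASN missed the call (log2 departure -0.56 ± 0.18, adjusted p = 0.0579). With TPM left unscaled the count in A549 was 2 up and 3 down, beside 10% and 3.76% of all genes. Without Control KD replicate 3 all 8 downward calls were kept and NSDHL was added to them.

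In NCI-H23 5 members departed upward and 3 downward, beside 8.23% and 12.8% of all genes, and 6 upward and 2 downward with quantile normalization, beside 9.34% and 11.9%. The upward ones were TM7SF2 (log2 departure 1.72 ± 0.34, adjusted p = 0.00537), MVK (log2 departure 0.63 ± 0.17, adjusted p = 0.0259), SC5D (log2 departure 0.59 ± 0.15, adjusted p = 0.0174), HMGCS1 (log2 departure 0.40 ± 0.10, adjusted p = 0.0177) and NSDHL (log2 departure 0.32 ± 0.09, adjusted p = 0.0372), and NSDHL had no call for the double knockdown itself. The downward ones were EBP (log2 departure -0.97 ± 0.13, adjusted p = 0.000616), FASN (log2 departure -0.78 ± 0.24, adjusted p = 0.0404) and FDPS (log2 departure -0.51 ± 0.12, adjusted p = 0.014). EBP and FDPS were thus called downward in both lines. The NSDHL and FASN calls held under 7 of 19 settings each, and the MVK call under 11 of 19.

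**Figure D4:**
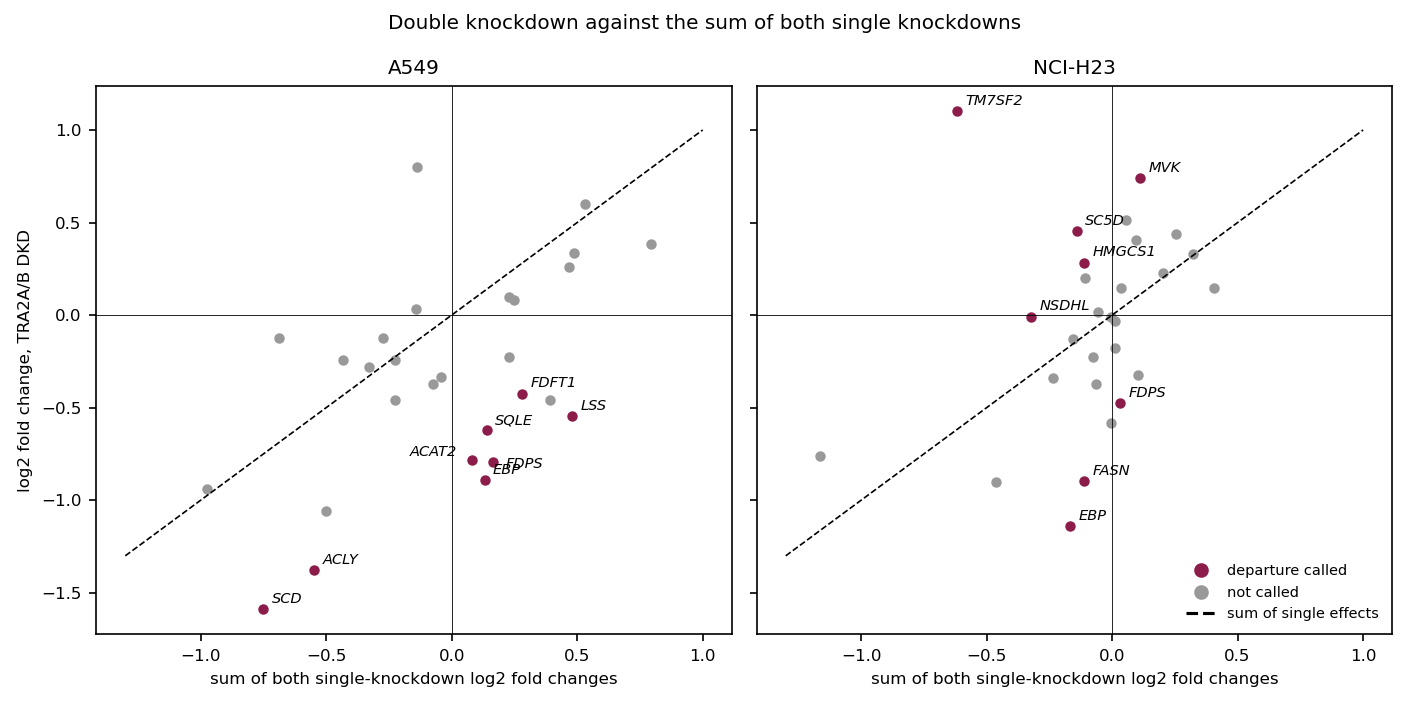
Log2 fold change of the double knockdown (vertical) against the sum of both single-knockdown log2 fold changes (horizontal), 1 point per gene, A549 left and NCI-H23 right, with the dashed line where they are equal. Named purple points are the called departures, 8 below the line in A549, and 3 below and 5 above it in NCI-H23.

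Other genes of lipid metabolism, listed with the same pathways, were read against the shares of all genes given above, 14.6% up and 15.9% down in A549 and 20.0% and 23.2% in NCI-H23. Several of the counts lie near those shares. Of 13 further genes of sterol synthesis, uptake and regulation, 0 rose and 4 fell in the A549 double knockdown, and 3 rose and 5 fell of 12 tested in NCI-H23. Among those that fell in both lines were LBR, a second sterol reductase and lamin B receptor (-0.84 and -1.57 on the log2 scale), the cholesterol esterifying enzyme gene SOAT1 (-0.67 and -0.85) and TMEM97 (-1.02 and -0.74). LBR shares its reductase step with TM7SF2, which rose in NCI-H23. Of 16 further fatty acid genes, 3 rose and 4 fell in A549 and 1 rose and 4 fell in NCI-H23. ELOVL5 and ACSL1 fell and MID1IP1, which activates acetyl-CoA carboxylase, rose in both (0.90 and 0.64).

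Beside the same shares, of 10 genes of the isoprenoid branches 3 rose and 0 fell in A549 and 4 rose and 2 fell in NCI-H23, with PGGT1B and COQ2 higher in both. Of 6 genes of the LXR and efflux list, 3 rose and 1 fell in A549 and 1 rose and 1 fell in NCI-H23. NR1H3, which encodes the sterol-sensing nuclear receptor LXR alpha, rose from 10.2 ± 4.07 to 38.3 ± 3.76 TPM in A549 (log2 fold change 1.89 ± 0.27, adjusted p = 0.000432). In NCI-H23 it rose from 3.44 ± 0.913 to 25.9 ± 0.928 TPM (log2 fold change 2.76 ± 0.20, adjusted p = 2.24e-06). LPCAT3, a phospholipid acyltransferase of the same list, fell (log2 fold change -1.58 ± 0.11 and -1.41 ± 0.07). Of 8 fatty acid oxidation genes, none passed in A549 and 2 rose in NCI-H23.

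In the glioma line LN319, TRA2A KO lowered 3 of the 4 regulators. In all 1 member rose and 5 fell, beside 7% and 7.25% of all genes. SREBF1 read 258, 254 and 251 TPM in Luc Control KO and 174, 169 and 149 in Luc TRA2A KO (log2 fold change -0.59 ± 0.11, adjusted p = 0.00376). SREBF2 read 152, 153 and 148 and 120.3, 121 and 118 (log2 fold change -0.29 ± 0.05, adjusted p = 0.00384). INSIG1 read 85.4, 96.5 and 93.9 and 61.1, 62.9 and 65.0 (log2 fold change -0.50 ± 0.12, adjusted p = 0.0139). In each of the 3 genes every knockout library lay below every control.

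The other 3 calls were in enzymes. HSD17B7, a sterol ketoreductase, went from 32.8, 32.6 and 33.3 to 22.3, 24.6 and 24.8 TPM (log2 fold change -0.42 ± 0.07, adjusted p = 0.00242). SCD went from 153, 175 and 195 to 90.9, 97.9 and 108 TPM (log2 fold change -0.77 ± 0.23, adjusted p = 0.0419), a call kept under 7 of 14 settings. SC5D rose from 116, 117 and 128 to 168, 158 and 192 TPM (log2 fold change 0.56 ± 0.14, adjusted p = 0.0204). The mevalonate genes held no call, their log2 fold changes lying between -0.21 and 0.25.

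TRA2B KO in LN319 lowered 12 members and raised 1, beside 24.2% and 18.5% of all genes. 8 of the 12 were among the 11 genes from squalene to cholesterol. With TPM left unscaled the split was 5 up and 9 down, with quantile normalization 6 up and 9 down, and with a minimum of 5 TPM 5 up and 9 down. The shares of all genes under these settings were 24.0% up and 18.6% down, 17.9% and 22.9%, and 25.8% and 28.9%. Under those settings ACLY, EBP and INSIG1 lost their calls and FASN, LPIN1, LSS and MVD gained calls as higher. The mitochondrial share of TPM was 18.3% to 20.6% in these libraries and 12.1% to 12.8% in Luc Control KO. The summed level of the glial or mesenchymal markers was 4622 to 4857 TPM and 5692 to 5850 TPM, with 1 of 5 tested higher and 2 lower. That of the epithelial markers was 284 to 299 and 344 to 357 TPM, with 3 of 4 tested lower. The part of any of these in the result was not tested.

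The largest of these changes was in SC5D, which went the opposite way to the TRA2A KO. It read 56.7, 61.1 and 50.5 TPM against 116, 117 and 128 in Luc Control KO. Its mean stood at 46.6% of the control mean (log2 fold change -1.21 ± 0.14, adjusted p = 6.64e-05). An early step moved too. PMVK, the phosphomevalonate kinase, went from 86.9, 85.7 and 86.2 to 51.5, 55.8 and 59.8 TPM (log2 fold change -0.74 ± 0.09, adjusted p = 7.77e-05). NSDHL, a sterol dehydrogenase, went from 33.1, 34.9 and 35.4 to 23.2, 24.5 and 23.6 (log2 fold change -0.64 ± 0.09, adjusted p = 0.000234). CYP51A1 went from 51.2, 57.7 and 57.6 to 40.2, 39.3 and 40.9 (log2 fold change -0.57 ± 0.09, adjusted p = 0.000474). The knockout libraries lay below the controls in all of these.

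MSMO1, beside CYP51A1 in the pathway, went from 41.5, 45.4 and 47.9 to 35.6, 32.0 and 33.6 TPM (log2 fold change -0.52 ± 0.10, adjusted p = 0.00126). SQLE went from 70.4, 72.6 and 71.0 to 59.1, 58.3 and 57.3 (log2 fold change -0.40 ± 0.06, adjusted p = 0.000163) and FDFT1 from 133, 134 and 148 to 113, 114 and 119 (log2 fold change -0.37 ± 0.10, adjusted p = 0.00783). ACAT2 went from 78.4, 76.9 and 94.1 to 58.5, 61.1 and 58.5 (log2 fold change -0.59 ± 0.15, adjusted p = 0.00677). These groups did not overlap. HSD17B7, at 26.9, 27.2 and 27.0 TPM, also lay below its controls (log2 fold change -0.39 ± 0.07, adjusted p = 0.000936).

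The remaining log2 fold changes were small, -0.34 ± 0.12 (adjusted p = 0.0309) for INSIG1, -0.28 ± 0.10 (adjusted p = 0.0377) for EBP and -0.19 ± 0.05 (adjusted p = 0.0125) for ACLY, whose sign turned under quantile normalization. INSIG1 read 81.2, 72.5 and 80.6 TPM, EBP 134, 126 and 134 against 157, 141 and 146, and ACLY 143, 148 and 147 against 146, 158 and 159, with overlap in ACLY. SREBF1 rose, to 351, 359 and 373 TPM (log2 fold change 0.39 ± 0.11, adjusted p = 0.0117). SREBF2 had a log2 fold change of 0.00 ± 0.05 and SCAP -0.01 ± 0.06. Outside the list, beside 24.2% of all genes lower and 18.5% higher, TRA2B KO lowered 6 and raised 1 of 13 further sterol genes, lowered 5 and raised 1 of 16 fatty acid genes, and lowered 7 of 10 isoprenoid genes with none raised. It also lowered 5 of 8 fatty acid oxidation genes with none raised, and lowered 3 and raised 2 of 6 genes of the LXR and efflux list.

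LN319 Luc TRA2A KO and Luc TRA2B KO share their controls, so they were also compared directly, a contrast added after the data were seen. In TRA2B KO against TRA2A KO, 5 members were higher and 10 lower, beside 20.8% and 26.4% of all genes. The split was 11 and 10 with TPM left unscaled (29.1% and 18.9% of all genes) and 10 and 9 with quantile normalization (20.8% and 25.0%). SC5D differed most (log2 difference -1.77 ± 0.14, adjusted p = 2.11e-06), followed by SREBF1 (log2 difference 0.99 ± 0.11, adjusted p = 1.78e-05). SCD (log2 difference 0.78 ± 0.23), LSS (log2 difference 0.35 ± 0.10), FASN (log2 difference 0.30 ± 0.09) and SREBF2 (log2 difference 0.29 ± 0.05) were also higher with TRA2B lost. Lower were ACAT2, PMVK, IDI1, FDFT1, SQLE, CYP51A1, MSMO1, NSDHL and EBP, with log2 differences between -0.37 for EBP and -0.75 for ACAT2. IDI1 was called here (log2 difference -0.43 ± 0.12, adjusted p = 0.00797) and in no other comparison under the main settings.

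In LN229 against Luc Control KO, no member was called in either knockout, beside 3.79% of all genes in TRA2A KO and 0.557% in TRA2B KO, and 3 and 8 members were under an unadjusted limma p of 0.05, beside 21.6% and 23.3% of all genes. Luc Control KO replicate 1 weighed on this. SREBF1 read 68.2, 32.1 and 36.6 TPM in the controls and 57.8, 60.6 and 62.1 in Luc TRA2B KO. SCD read 65.7, 32.5 and 33.6 and 61.8, 65.7 and 65.5. STARD4 read 52.8, 28.3 and 33.7 and 52.8, 56.1 and 58.6. In SREBF1 and SCD the first control was at or above the knockout libraries and the other two well below, and in STARD4 it was level with the lowest knockout library.

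Without that library, 7 members were higher and 3 lower in LN229 TRA2B KO, beside 8.55% and 12.1% of all genes. SCD had a log2 fold change of 0.90 ± 0.16 (adjusted p = 0.00552), STARD4 0.79 ± 0.13 (adjusted p = 0.00455), SREBF1 0.75 ± 0.13 (adjusted p = 0.00483) and FDFT1 0.50 ± 0.10 (adjusted p = 0.00743). MVD, SREBF2 and MSMO1 were the other higher members. EBP had a log2 fold change of -0.59 ± 0.11 (adjusted p = 0.00596), ACAT2 -0.53 ± 0.12 (adjusted p = 0.0144) and SC5D -0.21 ± 0.05 (adjusted p = 0.0194). Leaving out any other of the compared libraries gave 0 calls. TRA2A KO stayed at 0 calls without replicate 1.

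The direct comparison of the LN229 knockouts was also added after the data were seen. Its fold changes do not use the controls, but its SE and p-values draw on the spread of all LN229 libraries. With only the compared groups fitted, all 11 calls were kept and LSS and MVK gained calls. In TRA2B KO against TRA2A KO, 8 members were higher and 3 lower, beside 15.5% and 18.6% of all genes. The split was 11 and 2 with TPM left unscaled (18.9% and 14.5% of all genes) and 10 and 2 with quantile normalization (15.2% and 17.6%). The summed glial or mesenchymal markers were 4346 to 4504 TPM in TRA2A KO and 3526 to 3568 in TRA2B KO, and the epithelial ones 179 to 184 and 124 to 130, and their part in the result was not tested. SREBF1 read 30.5, 26.7 and 28.1 TPM in TRA2A KO, under 57.8 to 62.1 in TRA2B KO (log2 difference 1.01 ± 0.21, adjusted p = 0.00399). SCD read 31.4, 28.3 and 31.5, under 61.8 to 65.7 (log2 difference 1.01 ± 0.23, adjusted p = 0.00587). STARD4 (log2 difference 0.82 ± 0.18), TM7SF2 (log2 difference 0.68 ± 0.19), MVD (log2 difference 0.59 ± 0.14), HSD17B7 (log2 difference 0.49 ± 0.13) and SREBF2 (log2 difference 0.42 ± 0.10) were higher too, as was FDFT1. EBP read 100.2, 111 and 109.8 TPM in TRA2A KO and 78.0, 77.0 and 72.7 in TRA2B KO (log2 difference -0.56 ± 0.13, adjusted p = 0.00736), and ACAT2 34.7, 40.5 and 42.6 and 29.6, 27.2 and 30.7 (log2 difference -0.50 ± 0.15, adjusted p = 0.0209).

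Set side by side, the knockouts of the 2 glioma lines gave like differences for SREBF1 (log2 difference 1.01 ± 0.21 in LN229 and 0.99 ± 0.11 in LN319), SREBF2 and SCD, which were higher with TRA2B lost than with TRA2A lost in both. ACAT2, EBP and SC5D were lower in both, but SC5D differed on the log2 scale by -0.19 ± 0.06 in LN229 and -1.77 ± 0.14 in LN319. The LN229 call of SC5D was lost under 7 of 14 settings, among them unscaled TPM and quantile normalization. FDFT1 was called in opposite directions, with log2 differences of 0.56 ± 0.13 (adjusted p = 0.00643) in LN229 and -0.40 ± 0.10 (adjusted p = 0.0041) in LN319. FDFT1 read 57.0 to 64.6 TPM in LN229 TRA2A KO and 90.8 to 95.3 in TRA2B KO, and 127 to 153 and 113 to 119 in LN319. These differences between lines were not tested.

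**Figure D5:**
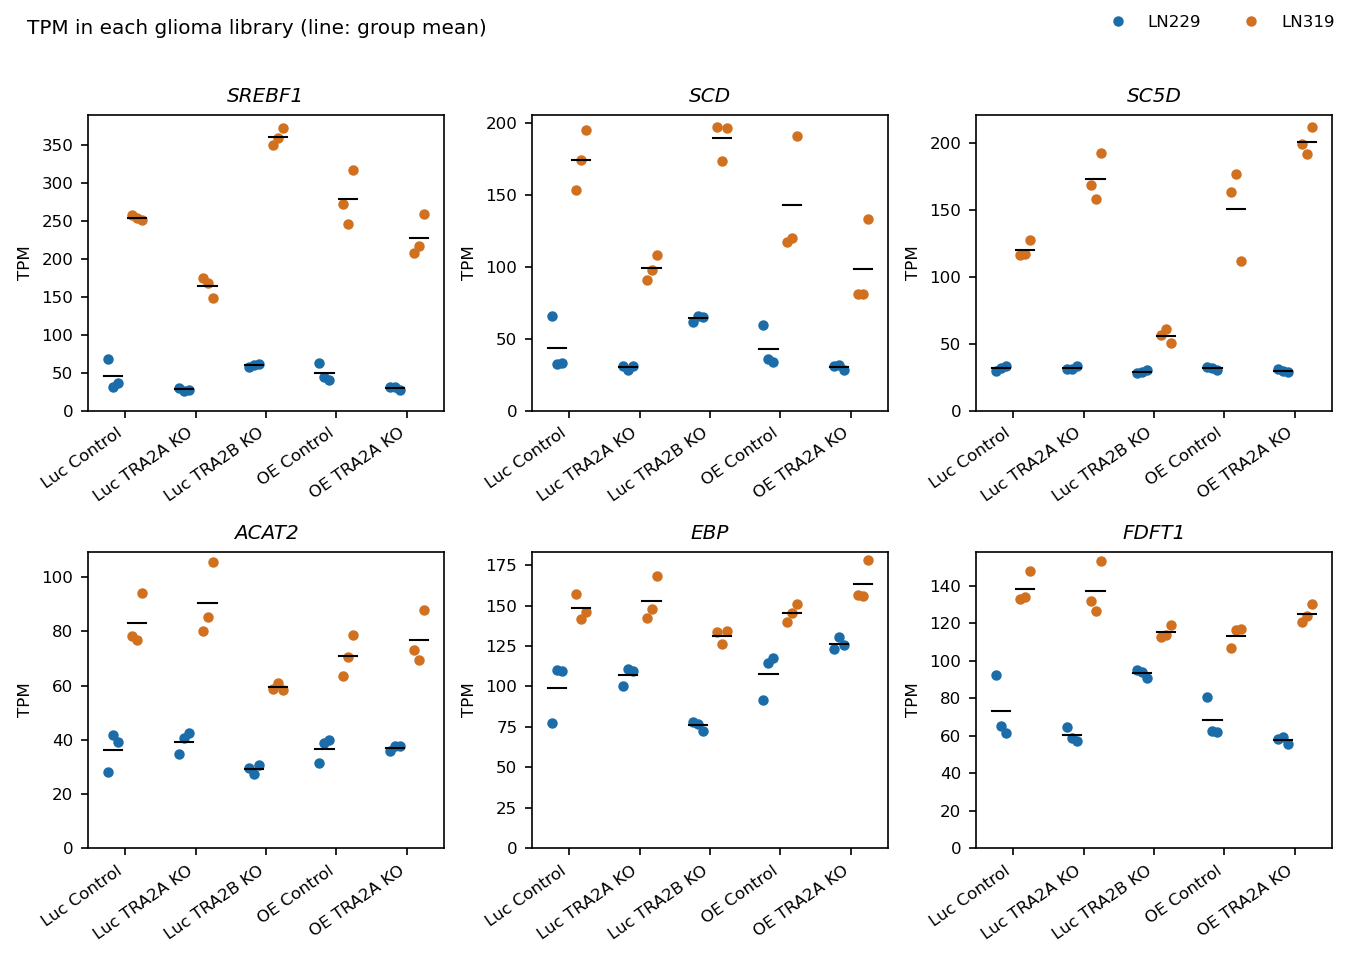
TPM (vertical axes, starting at 0) of 6 members in every LN229 (blue) and LN319 (orange) library, by group, with a line at each group mean (n = 3). LN319 SC5D lies at 50.5 to 61.1 TPM in Luc TRA2B KO and 158 to 192 in Luc TRA2A KO, and 1 LN229 Luc Control library lies with the TRA2B KO libraries for SREBF1 and SCD.

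TRA2B overexpression itself lowered 3 members in LN319 and raised none, beside 2.16% and 2.14% of all genes. ACACA, the gatekeeper of fatty acid synthesis, read 49.6, 54.7 and 51.1 TPM in Luc Control KO and 44.7, 41.0 and 41.3 in TRA2B-OE Control KO (log2 fold change -0.38 ± 0.06, adjusted p = 0.0081). FDFT1 went from 133, 134 and 148 to 107, 117 and 117 TPM (log2 fold change -0.37 ± 0.10, adjusted p = 0.0488). SQLE went from 70.4, 72.6 and 71.0 to 66.0, 62.9 and 61.4 TPM (log2 fold change -0.26 ± 0.06, adjusted p = 0.0265). Neither overlapped its controls, but the calls held under only 7 and 6 of 14 settings. Without TRA2B-OE Control KO replicate 3, DHCR7, PMVK and STARD4 were called lower as well. In LN229, TRA2B-OE Control KO gave no member call, beside 1.03% of all genes, and also gave none without its replicate 1.

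On the overexpressing background, TRA2A KO called 1 member in LN229, TM7SF2, and none in LN319, beside 6.05% and 2.81% of all genes called in either direction. TM7SF2 read 22.2, 16.1 and 15.1 TPM in TRA2B-OE Control KO and 10.6, 11.5 and 11.2 in TRA2B-OE TRA2A KO (log2 fold change -0.69 ± 0.19, adjusted p = 0.0487), and the call was lost without any 1 of those 6 libraries. Without TRA2B-OE Control KO replicate 1, which stood apart, the log2 fold change was -0.52. SC5D in LN319 read 163, 177 and 112 and 199, 192 and 212 TPM, apart in every library (log2 fold change 0.50 ± 0.14, adjusted p = 0.0817). SREBF1 there had a log2 fold change of -0.23 ± 0.11 (adjusted p = 0.3), beside -0.59 ± 0.11 on the Luc background. The paper reports that overexpressing TRA2B strongly lowered TRA2A protein in LN319. The backgrounds thus differed in TRA2A before the knockout, and the part of this in the smaller change was not tested. Whether overexpression changed the response to TRA2A KO was tested as an interaction, and no member passed in either line. Of all genes 0% passed in LN229, where 1068 genes were under an unadjusted limma p of 0.05, and 0.0207% in LN319. At an unadjusted limma p under 0.05 there were 0 members in LN229 and 3 in LN319, beside 5.78% and 7.93% of all genes, where the interaction on the log2 scale was 0.37 ± 0.16 for SREBF1, 0.19 ± 0.08 for SREBF2 and 0.23 ± 0.10 for HSD17B7.

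Across the 4 lines, ACAT2 and EBP were the members called lower in both lung double knockdowns, in LN319 TRA2B KO, and in TRA2B KO against TRA2A KO in both glioma lines. The LN319 comparisons share their TRA2B KO libraries, and the share of all genes called in all of these was not computed. The EBP call in LN319 TRA2B KO held under 7 of 14 settings, and the ACAT2 call in LN229 under 11 of 14. SQLE and ACLY were called lower in both double knockdowns and in LN319 TRA2B KO. The ACLY call held under 8 of 14 settings in NCI-H23 and under 10 of 14 in LN319. CYP51A1, MSMO1, PMVK and SC5D were higher in the NCI-H23 double knockdown and lower in LN319 TRA2B KO. SCAP and LPIN1 were not called in any of these comparisons under the main settings.

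Some members share sequence with other genes, which could divide their reads. In the Gencode v44 annotation, a later release than the authors used, 15 of the 28 shared exonic bases with another gene, 6 of them with a protein-coding one. ACAT2 overlaps TCP1 on the opposite strand by 454 bases, EBP an unnamed protein-coding gene on its own strand by 644, and CYP51A1 unnamed ones on its own strand by 2844 and 2827. FDPS has 8 named pseudogenes, IDI1 and CYP51A1 3 each, HSD17B7 2 and SCD 1, and the values of these genes are uncertain to that extent. Whether strand was used in quantification is not given in the sources used here.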

How the data were processed

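The study measured poly(A) RNA of 54 libraries by directional sequencing. The authors quantified transcripts with kallisto 0.48.0 on the Gencode v34 annotation of GRCh38, and the deposited tables hold TPM per gene, 1 table per cell line. STAR 2.7.3 is named in the submitters' processing notes and served splicing, not used here. Read depth is not recoverable from TPM. No identical libraries were found.

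TPM was divided by a factor per library (trimmed mean of ratios, 30% of ratios and 5% of abundances trimmed). Genes at 1 TPM or more in at least 4 libraries were tested, which left 16405 for A549, 16293 for NCI-H23, 18490 for LN229 and 19303 for LN319. Values of log2(TPM + 0.1) were fitted with limma 3.58.1 in R 4.3.3, with 1 fit per line over all its libraries and a trended variance. The pseudocount understates changes of low genes. The call was an adjusted p under 0.05. The fit was tested on simulated data whose added changes were larger than any member change reported here, so smaller changes were not tried. The authors' own fit on counts could not be repeated, as no counts were used here.

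All 28 members are named. Full values are given for members called in both double knockdowns or in any single perturbation or overexpression, and for the 3 largest changes in each double knockdown. Members called in only 1 double knockdown were added after their values were seen. Other pathway genes are named where called the same way in both double knockdowns. The markers were KRT8, KRT18, KRT19, EPCAM and CDH1 for epithelium, VIM, NES, GFAP, SOX2, OLIG2 and CD44 for glial or mesenchymal cells, and PTPRC, PECAM1 and CD3E for others. The members and lists were chosen with earlier results of these data known. Alternatives were the pseudocount, the filter, the scaling, the samples fitted, a replicate block, a minimum fold, and leaving out each library. Promoters came from RefSeq (GRCh38.p14), matched by symbol. ACAT2, FDFT1, SQLE and FASN had no entry used here.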

Additional observations from a re-analysis of the deposited data

Results flagged for a closer look

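Members are listed here whose libraries all lay above their controls in 1 cell line and all below in the other under the same perturbation. Their position was read on the deposited TPM, whereas the fold changes are scaled. After scaling, the FDFT1 value of 0.015 and the ACLY value of -0.018 show almost no change. The difference between the lines was not tested for any of them. After double knockdown, INSIG1 had a log2 fold change of -0.34 in A549 and 0.20 in NCI-H23, and FDFT1 of -0.42 and 0.015, of which the A549 value of FDFT1 alone was called. In Luc TRA2B KO, LSS stood at -0.23 in LN229 and 0.18 in LN319, MSMO1 at 0.15 and -0.52, and HSD17B7 at 0.24 and -0.39, of which the LN319 values of MSMO1 and HSD17B7 were called. In TRA2B-OE TRA2A KO, FDFT1 stood at -0.27 in LN229 and 0.20 in LN319, and ACLY at 0.14 and -0.018, none of them called. Groups of 3 libraries are too small for the check on single outlying samples, which was not run.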

How the results depend on the processing

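With 93 called changes of single members set against each alternative, 1210 of 1382 values kept direction and call, 171 kept direction and lost the call, and 1 reversed. That one was ACLY in LN319 Luc TRA2B KO, with a log2 fold change of 0.012 under quantile normalization. The member counts below are calls in either direction. They show only how the calls move with the setting. They are not set against the share of all genes, which also changed with the setting where it is given above. Leaving out 1 library at a time gave 9 to 15 in the A549 double knockdown, 15 in every case in NCI-H23, 0 to 1 in A549 TRA2B KD, 0 to 10 in LN229 Luc TRA2B KO (10 without Luc Control KO replicate 1), 0 in LN229 TRA2B-OE TRA2A KO, 1 to 6 in LN319 TRA2B-OE Control KO, 0 to 1 in LN319 TRA2B-OE TRA2A KO, and 5 to 10 in the A549 and 5 to 11 in the NCI-H23 departure from additivity. The members behind the 15 in NCI-H23 were not always the same. Without double knockdown replicate 1, ACLY and SQLE lost their calls and IDI1 and LPIN1 gained calls. Without Control KD replicate 1, ACLY lost its call and IDI1 was called. A549 TRA2B KD gave 1 with unscaled TPM or quantile normalization. The A549 double knockdown gave 7 with only the compared groups fitted. LN229 TRA2B-OE TRA2A KO gave 0 without the filter, with unscaled TPM, with quantile normalization and with only the compared groups fitted. LN319 TRA2B-OE Control KO gave 1 without the filter and 0 with only the compared groups. The departures gave 5 in A549 with unscaled TPM and 4 in NCI-H23 without the filter. Fitting only the compared groups is no alternative for these, since they use all 4 groups. The cause was not tested except where fewer samples entered the fit.

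Requiring an absolute log2 fold change above 1 left 3 members in the A549 and 2 in the NCI-H23 double knockdown, 2 and 1 for their departures from additivity, 0 in LN229 TRA2B-OE TRA2A KO, 0 in LN319 Luc TRA2A KO, 1 in LN319 Luc TRA2B KO, 0 in LN319 TRA2B-OE Control KO, and 2 and 1 in TRA2B KO against TRA2A KO in LN229 and LN319.

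Groups share replicate numbers, and the main fit did not pair the samples by them. Correlations of deviations between same-numbered libraries ran from -0.155 to 0.212, and no comparison had all pairs over 0.1. The highest was for replicate 1 of LN229 TRA2B-OE Control KO and Luc Control KO, both of which stood apart from their groups. Replicates 2 and 3 of that comparison gave 0.0022 and 0.0597. The rule on all pairs cannot show a shift carried by a single replicate number, which was not tested. With a replicate block the counts were 2 in LN229 Luc TRA2B KO, 2 in LN229 TRA2B-OE TRA2A KO and 5 in LN319 TRA2B-OE Control KO, and moved by no more than 1.5 times elsewhere. Read depth is unknown here, so low members such as STARD4 and TM7SF2 carry an unmeasured counting error.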
